A study of Mus musculus with 6 samples.

Results

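Megalin (*Lrp2*) and cubilin (*Cubn*) are the receptors with which proximal tubule cells take filtered proteins back from the urine. The genes described here are those of this uptake route, 8 in number out of 23276 gene symbols in the table: *Lrp2* and *Cubn*, amnionless (*Amn*), disabled-2 (*Dab2*), the chloride/proton exchanger ClC-5 (*Clcn5*), the phosphatase *Ocrl*, the receptor-associated protein (*Lrpap1*) and the neonatal Fc receptor (*Fcgrt*). They were chosen by name, and every transcript listed under each symbol was kept. RNA came from whole kidneys of 6 mice at post-natal day 22, in 2 genotypes. All 6 mice carried KspCre, a Cre recombinase under the promoter of kidney-specific cadherin that acts in renal tubules, with 1 floxed *Pkd1* allele and 1 hypomorphic RC allele of *Pkd1* (*Pkd1* F/RC). In 3 of them *Pkd1* alone was targeted (SKO, single knockout), and the other 3 were also homozygous for a floxed miR-17∼92 cluster (DKO, double knockout). *Pkd1* was thus altered in both groups, and no kidney with intact *Pkd1* was among the samples.

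The value used is the authors' mean abundance, which pools all 6 libraries in 1 number per transcript. It is given as log2 CPM (read counts scaled to library size), or as CPM after raising 2 to that power. Because transcripts of the same gene overlap, a CPM value here need not give the share of sequenced reads. A pooled mean has no error and cannot show whether SKO and DKO kidneys differed, so every level below is a description without a test, and no difference between the groups is given. The depth of each library is unknown here. In whole-kidney RNA, fewer cells of a type and less RNA per cell cannot be told apart. *Mir17hg*, the host transcript of the targeted cluster, had a pooled mean of 4.21 CPM and *Pkd1* one of 31.8 CPM, and neither value checks the genotype labels.

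In the textbook account, megalin is a very large single-pass receptor of the lipoprotein receptor family, whereas cubilin has no transmembrane segment and reaches the apical membrane only in complex with amnionless. *Lrpap1* encodes a chaperone that keeps new lipoprotein receptor family proteins from binding ligands in the endoplasmic reticulum. *Dab2* encodes an adaptor that links the cytoplasmic tails of these receptors to clathrin. ClC-5 supports the acidification of the endosome into which the receptors deliver their cargo, and the OCRL phosphatase removes the 5-phosphate of phosphatidylinositol 4,5-bisphosphate on the same route. Loss of ClC-5 or OCRL in humans causes Dent disease or Lowe syndrome, in which low-molecular-weight proteins appear in the urine. The neonatal Fc receptor, a dimer with beta-2-microglobulin, binds albumin and immunoglobulin G in acidic endosomes and spares them from degradation.

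The promoters of the 3 genes of the receptor complex are shown first, since they differ in base composition although their products work together. The windows are those of RefSeq on GRCm38.p6 and run from 250 bases before to 50 bases after an annotated start. The GENCODE annotation, used below for gene spans and lengths, can place starts elsewhere. Its start of *Cubn*, chr2:13491813, lies past the end of the window. Its start of *Lrp2*, chr2:69586065, lies within the window but not at the RefSeq start. Capitals mark matches on either strand to the TATA box TATAAA, the CCAAT box, the GC box core GGGCGG or the HNF1 half-site GTTAAT, none of which contains another. The window of *Lrp2* lies at chr2:69585980-69586279 on the minus strand, that of *Cubn* at chr2:13491827-13492126 on the minus strand and that of *Amn* at chr12:111270846-111271145 on the plus strand.
*Lrp2*: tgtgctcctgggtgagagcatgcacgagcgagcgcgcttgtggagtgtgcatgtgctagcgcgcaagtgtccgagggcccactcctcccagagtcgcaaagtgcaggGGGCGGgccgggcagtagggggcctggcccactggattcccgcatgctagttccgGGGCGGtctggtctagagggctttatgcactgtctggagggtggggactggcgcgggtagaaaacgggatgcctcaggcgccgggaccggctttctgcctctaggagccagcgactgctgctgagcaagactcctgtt
*Cubn*: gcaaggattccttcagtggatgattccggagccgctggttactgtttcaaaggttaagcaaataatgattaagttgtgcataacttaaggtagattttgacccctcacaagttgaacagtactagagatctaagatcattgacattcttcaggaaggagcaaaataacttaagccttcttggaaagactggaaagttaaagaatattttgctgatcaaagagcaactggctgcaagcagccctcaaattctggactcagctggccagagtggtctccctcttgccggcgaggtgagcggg
*Amn*: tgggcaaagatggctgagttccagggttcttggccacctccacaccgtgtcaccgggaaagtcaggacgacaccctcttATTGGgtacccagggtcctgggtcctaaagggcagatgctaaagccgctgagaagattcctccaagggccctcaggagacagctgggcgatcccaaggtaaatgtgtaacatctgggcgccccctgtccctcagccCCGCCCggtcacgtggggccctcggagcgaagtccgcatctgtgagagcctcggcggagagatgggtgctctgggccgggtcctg

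The *Lrp2* window held 65.0% G and C bases and 20 CpG dinucleotides, with GGGCGG beginning 143 and 88 bases before the start. The *Amn* window was similar in composition, with 62.3% G and C, 15 CpG dinucleotides, 1 GGGCGG on the opposite strand and 1 CCAAT on the opposite strand. The *Cubn* window stood apart from both, with 44.3% G and C, 5 CpG dinucleotides and no exact match to the motifs searched. Variants of these motifs were not searched in any window. Over all 32851 RefSeq windows of 300 bases the median was 52.7% G and C. GGGCGG occurred in 35.7% of all windows, CCAAT in 37.4%, TATAAA in 13.6% and GTTAAT in 7.1%.

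The other members had 7 windows. *Lrpap1* held 5 copies of GGGCGG, more than any other window of the members, and *Ocrl* held 2. *Dab2* and *Clcn5* each had a pair of windows of unlike composition. For *Dab2* the upstream window had 37.7% G and C and 2 CpG dinucleotides, and the downstream window had 59.3% and 19 CpG dinucleotides, with the only GTTAAT among the members 65 bases before its start. For *Clcn5* the downstream window had 43.3% G and C and the only TATAAA, beginning 172 bases before the start, and the upstream window had 56.0%, 19 CpG dinucleotides and 1 GGGCGG. *Fcgrt*, with 53.3% G and C, 5 CpG dinucleotides and no match, was close to the median in base content. A match gives letters only, and binding was not measured.

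**Figure D1:**
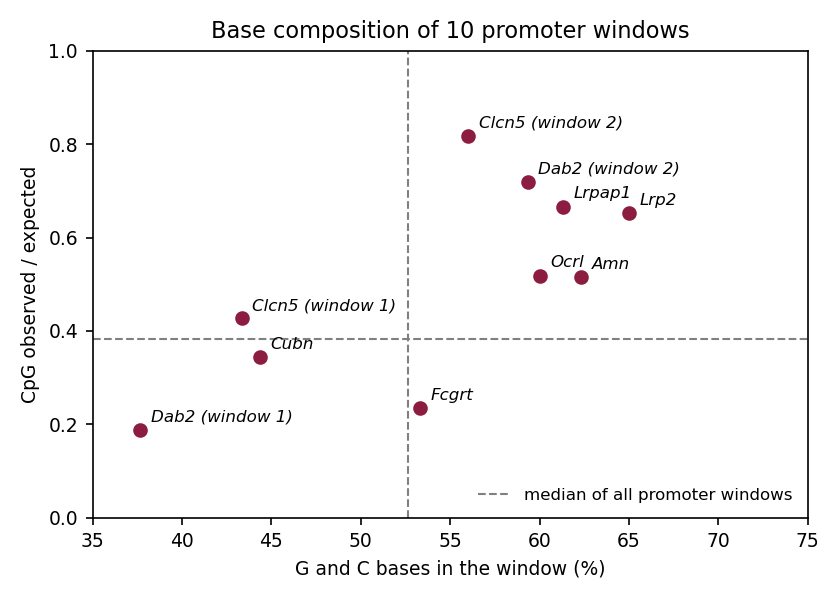
Each point is 1 RefSeq promoter window of 300 bases, with the share of G and C bases on the x axis and the ratio of observed to expected CpG dinucleotides on the y axis; dashed lines are the medians of all windows. The windows of *Lrp2*, *Lrpap1*, *Amn* and *Ocrl* lie to the upper right with 60.0 to 65.0% G and C. The downstream window of *Dab2*, at 59.3%, and the upstream window of *Clcn5*, at 56.0%, also lie above both medians. That of *Cubn* lies at 44.3%, and the other windows of *Dab2* and *Clcn5* lie at 37.7% and 43.3%.

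The table lists 27 transcripts for these genes, 12 of them RefSeq mRNAs and 15 with the names that Cufflinks gives to transcripts it assembles from reads. All 8 genes reached 1 CPM, as did 13001 of all 23276 gene symbols. The transcripts of *Cubn*, *Amn*, *Ocrl* and, but for 1, *Dab2* had nearly the same values, and entries of 1 gene overlap, so their values must not be added. The transcript of highest mean was an assembled one for *Cubn*, *Dab2*, *Clcn5* and *Ocrl*.

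The receptors are described first. *Lrp2* spans chr2:69424340-69586065 on the minus strand, and its RefSeq mRNA has 79 exons, 15460 bases and 13980 coding bases in GENCODE. This mRNA had a mean log2 CPM of 9.15 (567 CPM), the highest of all 27 transcripts. Of its 4 assembled transcripts, 1 also stood at 9.15 and the others stood at 8.86, 8.46 and 7.70 on the log2 CPM scale, so the lowest was 2.73-fold below the highest. *Cubn* spans chr2:13276338-13491813 on the same strand of the same chromosome, with 67 exons, 11262 bases and 10869 coding bases. Its RefSeq and assembled transcripts had log2 CPM values of 7.003 and 7.003 (128 CPM each). *Amn*, at chr12:111271095-111276426 on the plus strand, is far shorter, with 12 exons and 1701 bases. Its RefSeq mRNA had a log2 CPM of 4.03 (16.3 CPM) and its assembled transcript 3.91 (15.0 CPM).

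The adaptor *Dab2* lies at chr15:6299788-6440712 on the plus strand and has the most entries, with 4 RefSeq and 4 assembled transcripts. Of the 8, 7 stood between 7.52 and 7.57 on the log2 CPM scale, and 1 assembled transcript was lower at 6.68 (102 CPM against 190 CPM for the highest). The RefSeq mRNA with the longest coding sequence, 2298 bases, had 189.7 CPM, and the 3 with 1644 or 1581 coding bases had 184.4, 184.4 and 183.0 CPM. The long form has 989 to 1953 bases that another RefSeq form lacks, among them an exon of 654 bases at chr15:6429296-6429949, within the coding sequence, that none of the others overlaps. Its mean was 5.30 CPM above that of the shorter form with 1644 coding bases, or 2.8% of its own level. The starts of these forms lie at both promoter windows of *Dab2*: the form that begins at the upstream window and one that begins downstream each had 184.4 CPM, and most of their exons are shared, so use of the starts cannot be read from these means.

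*Clcn5*, at chrX:7153810-7319358 on the minus strand, had RefSeq and assembled entries at separate levels. Its 3 assembled transcripts had log2 CPM values of 5.58, 5.58 and 5.58 (47.7 to 47.9 CPM), whereas its RefSeq mRNAs had 4.15 and 4.14 (17.8 and 17.6 CPM), a 2.70-fold difference between the highest of each kind. The RefSeq mRNAs have 2448 and 2238 coding bases, and their means differed by 0.14 CPM. In GENCODE the first begins just past the end of the upstream promoter window, and the second begins within the downstream window. In GENCODE the shorter transcript has 3052 bases and the longer 8390 bases, 5842 of them outside the exons of the former. Whether the assembled entries reach into that part was not tested. *Ocrl*, at chrX:47912387-47965868 on the plus strand, has 24 exons and 5253 bases, and its RefSeq and assembled transcripts both had a log2 CPM of 4.26 (19.1 CPM).

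The chaperone gene *Lrpap1*, at chr5:35091501-35105766 on the minus strand, had a log2 CPM of 7.26 (154 CPM) for its RefSeq mRNA of 8 exons and 2981 bases. Its single assembled transcript had 3.91 (15.1 CPM), a 10.2-fold lower level and the widest gap within any member. *Fcgrt*, at chr7:45092990-45103851 on the minus strand, was listed once, as a RefSeq mRNA of 7 exons and 1770 bases with a log2 CPM of 5.08 (33.9 CPM).

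**Figure D2:**
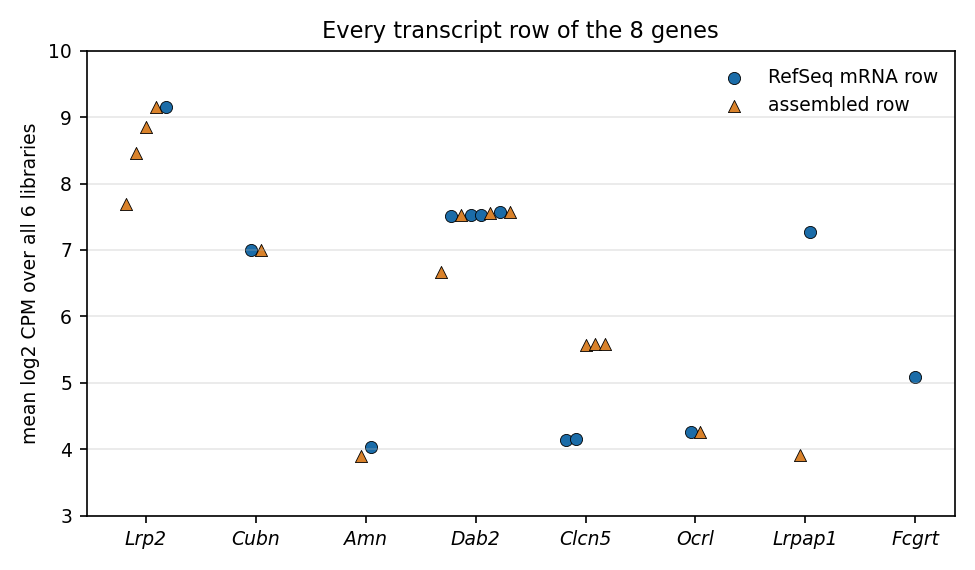
Each point is 1 transcript of a gene, and the y axis is its mean log2 CPM over all 6 libraries (no error can be drawn for a pooled mean); circles are RefSeq mRNAs and triangles are transcripts assembled from the reads. The transcripts of *Cubn*, *Ocrl* and, but for 1, *Dab2* lie together, those of *Lrp2* run from 7.70 to 9.15, and the assembled transcripts of *Clcn5* lie above and that of *Lrpap1* below the RefSeq ones.

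Longer mRNAs yield more fragments, so levels of different genes were compared as CPM per kilobase, with the RefSeq mRNA of highest mean and the length of its GENCODE transcript. *Lrpap1* was highest at 51.6 CPM per kilobase, followed by *Dab2* at 40.7 and *Lrp2* at 36.7. *Fcgrt* stood at 19.2 CPM per kilobase, *Cubn* at 11.4 and *Amn* at 9.59. *Clcn5* at 5.82 and *Ocrl* at 3.64 CPM per kilobase were the lowest, and the highest member was 14.2-fold above the lowest. With the longest annotated transcript of each gene *Clcn5*, at 2.12, was the lowest in place of *Ocrl*, and the span was 24.4-fold. That value of *Clcn5* divides the mean of its shorter RefSeq mRNA by the length of the longer one, and the 24.4-fold span rests on it. From its highest assembled transcript over the same length *Clcn5* stood at 5.71, above *Ocrl*. With pooled means the spread between kidneys is unknown, so it cannot be said which neighbours in this order differ beyond it. The closest neighbours were *Dab2* and *Lrp2*, with a ratio of 1.11, and *Cubn* and *Amn*, with a ratio of 1.19.

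Cubilin and amnionless form 1 complex, and their mRNAs were close in CPM per kilobase although the means before scaling by length were 128 and 16.3 CPM. *Lrp2* was 3.22-fold above *Cubn* and 3.82-fold above *Amn* on the per-kilobase scale. The first place of *Lrpap1* rests on its RefSeq mRNA. Its assembled transcript had a 10.2-fold lower mean but no matched length, so it gives no level per kilobase. The positions of *Dab2* and *Clcn5* depend on the RefSeq form and the length used. From the mean and length of each of its other RefSeq forms, *Dab2* would stand at 48.6, 67.0 or 67.5 CPM per kilobase. The values of 67.0 and 67.5 exceed the level of *Lrpap1*. The form of 4663 bases, used for 40.7, holds all 2754 bases of the form at 67.0. Its mean was 5.30 CPM higher with 1909 further bases, so 40.7 spreads nearly the same mean over a longer sequence. Read over the 8390 bases of the longest annotated transcript, *Clcn5* had 2.12 CPM per kilobase from the RefSeq mRNA of higher mean. The one with that length gave 2.10 and the highest assembled transcript 5.71. The RefSeq means of *Clcn5* differed by only 0.14 CPM, although the longer mRNA has 5842 bases outside the exons of the shorter. Whether the authors' version of the longer mRNA held those bases was not tested, so 2.12 and 2.10 may be too low.

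The comparison set was 12499 genes that had a matched length and reached 1 CPM. Their median was 4.06 CPM per kilobase, and 7 of the 8 members lay above it. *Lrpap1* was above 96.2% of these genes, *Dab2* above 95.0% and *Lrp2* above 94.4%. *Fcgrt* lay above 88.5%, *Cubn* above 80.1%, *Amn* above 76.5% and *Clcn5* above 62.6%. *Ocrl*, above 46.3%, was the member under the median. With the longest annotated transcript *Clcn5* lay under it too, at 2.12 CPM per kilobase, which left 6 of the 8 above. From its highest assembled transcript over that length *Clcn5*, at 5.71, stayed above it. The median of the members was 15.3 CPM per kilobase.

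**Figure D3:**
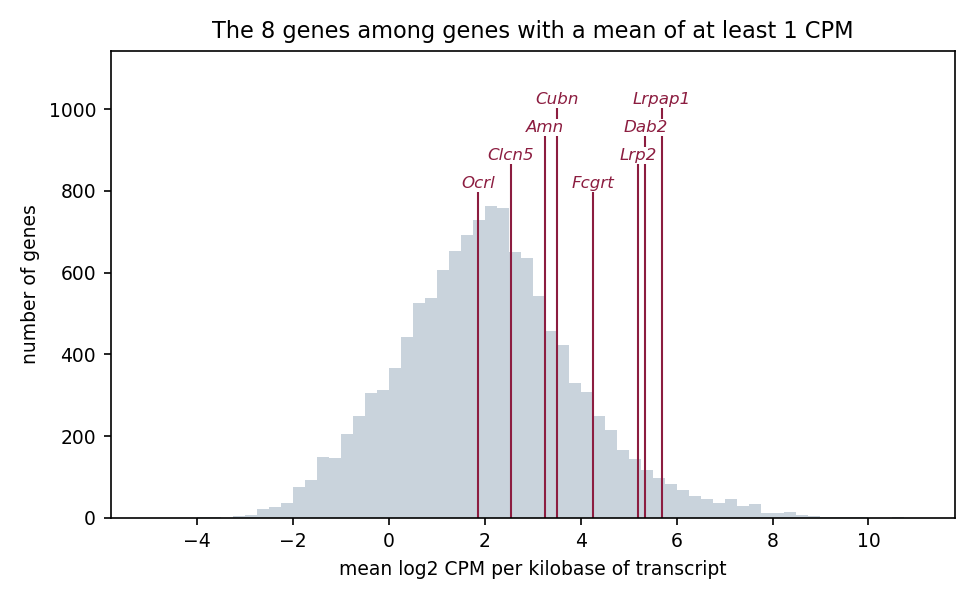
Grey bars count the genes that reached 1 CPM by their mean log2 CPM per kilobase of transcript, and each vertical line marks 1 member. *Lrpap1*, *Dab2* and *Lrp2* lie in the right tail, above 94.4 to 96.2% of genes, and *Ocrl* lies at 46.3%.

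The kidney label and the proximal tubule were checked with marker genes. All 8 proximal tubule markers were present, from 20.5 CPM per kilobase for *Slc22a6*, an organic anion transporter, to 423 for *Slc34a1*, the sodium-phosphate cotransporter, with a median of 103. *Lrp2* lay within this range, between *Slc13a3*, a dicarboxylate transporter, at 35.6 CPM per kilobase and *Slc5a2*, the glucose transporter SGLT2, at 47.5. The other segments and cell types were present too: the medians of CPM per kilobase were 69.4 for 4 thick ascending limb markers, 25.5 for 6 collecting duct markers, 20.6 for 4 distal convoluted tubule markers, 9.01 for 4 podocyte markers, 10.1 for 4 endothelial markers and 26.2 for 4 fibroblast and mural markers. Of 4 macrophage markers, 3 had a length, with a median of 6.24, and 4 red cell markers had a median of 89.6. Markers of pancreas, heart, brain and skeletal muscle had at most 0.0747 CPM per kilobase. *Afp*, *Apoa4* and *Fabp6*, genes of yolk sac and ileum, other sites where cubilin is known to be expressed, had at most 0.438 CPM per kilobase. *Cdh16*, whose promoter drives the Cre, had 480 CPM. How much of each member's RNA came from any of these cell types was not tested.

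Within the lipoprotein receptor family *Lrp2* had the highest level. Of the 14 other genes listed, 13 reached 1 CPM, and their median was 2.94 CPM per kilobase against 36.7 for *Lrp2*. The next was *Lrp6*, a Wnt co-receptor, at 10.4, so *Lrp2* was 3.51-fold above it. *Lrp1*, the widely expressed large receptor of the family, had 3.04 CPM per kilobase, so *Lrp2* was 12.1-fold above it. *Lrp1b* was the lowest, at 0.0035 CPM per kilobase.

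Among 18 coat, adaptor and motor genes all had at least 1 CPM, with a median of 11.3 CPM per kilobase. *Dab2*, at 40.7, was near the top of their range, beside *Ap2m1*, a subunit of the AP-2 clathrin adaptor, which was highest at 42.7. From each of its other RefSeq forms, at 48.6 to 67.5, *Dab2* would stand above *Ap2m1*. *Dab1*, the relative of *Dab2* known from neurons, was lowest at 1.33. *Myo6*, the motor that moves coated vesicles away from the microvilli, had 21.03.

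The chaperone *Lrpap1*, at 51.6 CPM per kilobase, was lower than the 5 general chaperones of the endoplasmic reticulum in its list, of which *Hspa5* (BiP) had 88.2. The 8 other genes of the list had a median of 91.9. *Mesdc2*, which encodes a chaperone of LRP5 and LRP6, had 5.74, and *Mesdc1* was lowest at 1.02. *B2m*, the light chain that *Fcgrt* shares with the class I histocompatibility molecules, was highest at 210 CPM per kilobase, 10.97-fold above *Fcgrt*.

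*Clcn5* was not the highest member of its family. *Clcn3* had 16.8 CPM per kilobase and *Clcn4-2* 9.11 against 5.82 for *Clcn5*, while *Clcn7*, the lysosomal exchanger, had 3.66 and *Clcn6*, the lowest of its list, 1.65. The place of *Clcn5* in this order depends on how it is read: over the longest annotated length it stands between *Clcn7* and *Clcn4-2* from its assembled transcripts, at 5.71, but below *Clcn7* from its RefSeq mRNAs, at 2.12 and 2.10. The vacuolar proton pump subunit *Atp6v0c*, the highest gene of this list, had 122 CPM per kilobase, and the 14 other genes had a median of 16.8. *Ocrl*, at 3.64, stood below its closest relative *Inpp5b*, at 6.47 CPM per kilobase, by 1.78-fold. The 13 other genes of its list, phosphoinositide enzymes and the OCRL-binding proteins *Fam109a* and *Fam109b*, had a median of 2.24 and ran from 0.18 for *Fam109b* to 13.5 for the kinase gene *Pip5k1c*.

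The 21 endosome sorting and recycling genes all had at least 1 CPM. Their median was 8.65 CPM per kilobase, with *Rab5c*, a GTPase of early endosomes, highest at 57.4 and *Rab32* lowest at 2.11. Of 12 genes for ligands and carriers, 11 had at least 1 CPM. *Tcn2*, the carrier of vitamin B12 in blood and a megalin ligand, had 155 CPM per kilobase. *Rbp4*, the retinol carrier that megalin recovers from the filtrate, had 0.991, and *Gif*, the intrinsic factor that cubilin binds in the ileum, was at the table's lowest value. *Fth1*, for ferritin heavy chain, was highest at 701.

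**Figure D4:**
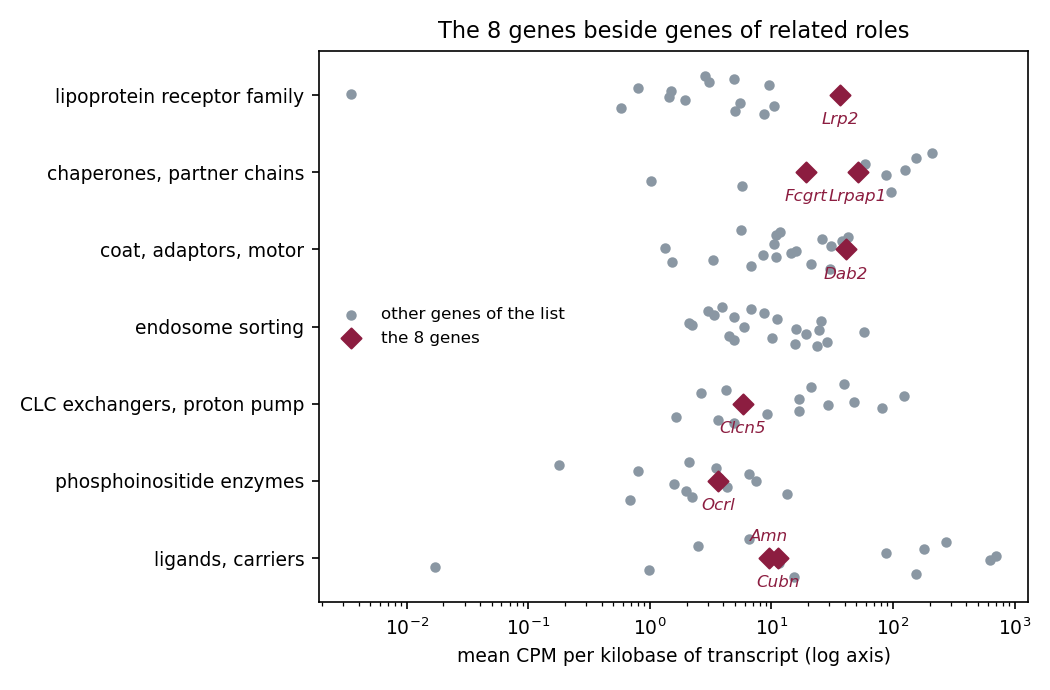
Each grey point is a gene of the list named on the y axis and each diamond is 1 of the 8 genes, placed beside the list nearest its role (*Dab2*, *Fcgrt*, *Cubn* and *Amn* belong to none of the lists); the x axis is the mean CPM per kilobase of transcript on a log scale. *Lrp2* at 36.7 lies to the right of all other lipoprotein receptor family genes, *Dab2* at 40.7 lies near the top of the adaptors (above them with its other RefSeq forms), and *Clcn5* and *Ocrl* lie inside their lists.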

How the data were processed

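Total RNA of 6 mouse kidneys, 3 SKO and 3 DKO, was made into stranded libraries and read as single ends. After trimming of low-quality ends, the authors aligned the reads to mm10 with TopHat2 (2.0.12 in the submitters' processing notes) and the UCSC iGenomes annotation, and kept alignments of mapping quality 10 or more. The notes also name Cufflinks, featureCounts of Subread 1.4.6 and edgeR 3.2.4. The deposited log2 values are one mean log2 CPM per transcript, which the authors computed over all libraries. The other columns hold their fold changes, likelihood ratio statistics, p-values and adjusted p-values for DKO over SKO. These were not used, and a planned count test of the groups was not run, since it needs counts per sample.

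Of 54721 transcripts, 27012 were RefSeq mRNAs, 3549 RefSeq non-coding and 24160 assembled, and 9317 had no gene symbol. The lowest value, -5.25, was shared by 4617 transcripts. The CPM of all transcripts summed to 1007270 and that of the highest transcript of each symbol to 36.8% of this. Depth per library, the prior count and scaling are not given in the sources used here.

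RefSeq mRNAs were matched by accession to GENCODE M21 (GRCm38, the assembly of mm10), which gave a length for 20167 of 20470 genes. The authors' own transcript lengths may differ. Named genes were the 8 members, the highest and lowest gene of each list, and partners of the members. Some of these partners are not reported here. *Hspa5*, *Mesdc2*, *Slc5a2*, *Slc13a3*, *Fam109a*, *Cdh16*, *Afp*, *Mir17hg* and *Pkd1* are named outside that rule, after their values were seen. Symbols absent from the table were replaced by RefSeq synonyms (*Clcn4* by *Clcn4-2*). The members and lists were chosen with earlier results of these data known, and the promoter motifs after the sequences were seen. Python 3.11.15, numpy 2.4.6, pandas 2.3.3 and matplotlib 3.10.9 were used.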

Additional observations from a re-analysis of the deposited data

How the results depend on the processing

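A single pooled mean per transcript leaves few choices, and a change of over 1.5-fold was taken as a move, because no spread between kidneys was at hand. The level of *Clcn5* moved from 5.58 to 4.15 (log2 CPM) with RefSeq mRNAs only and to 4.14 with its lowest transcript. With the lowest transcript *Lrp2* moved to 7.70, *Dab2* to 6.68 and *Lrpap1* to 3.91, and with the median over transcripts *Lrpap1* moved to 5.59, the midpoint of its 2 transcripts. Per kilobase, *Clcn5* moved to 1.08 (log2 CPM per kilobase) with its longest annotated transcript. Of the 46 levels recomputed, 39 stayed within 1.5-fold, but 20 of these were identical to the value reported, because the alternative picked the same transcript, length or middle gene, and say nothing of stability. Without the filter on low values the median share of genes below a member was 90.3% against 84.3%. Of the 28 pairs of members, 21 to 27 kept under the alternatives the order found per kilobase, with 21 in CPM not scaled by length and 21 with the lowest transcript. For these orders the median, highest or lowest transcript value was divided by the RefSeq transcript length, also where it came from an assembled transcript of unknown length.

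For the difference between DKO and SKO, DESeq2 size factors, dropping the filter on low counts and leaving out each replicate could not be run, because they need counts per sample. No paired analysis was possible because the table holds no value of a single kidney. With neither counts nor depth, no interval or smallest detectable level was set, and the order of close neighbours is not resolved.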
